A study of Mus musculus and Rattus norvegicus with 24 samples.

Results

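Zinc finger genes are the largest group of transcription factor genes in mammals, and 218 of them carried the same gene symbol on the mouse and the rat array used here. They were the genes whose symbol starts with Zfp (203), Zkscan (7) or Zscan (8) followed by a number and stands in both tables, out of 22180 mouse genes and 18166 rat genes tested, of which 14204 symbols were shared. Zfp36, Zfp36l1 and Zfp36l2, which encode proteins that bind and destabilise mRNA, were left out. A shared symbol does not establish that the genes are orthologous. The tissue was a 3 by 3 mm piece of brain penumbra, the zone bordering the ischaemic core, after a filament had been run into the middle cerebral artery and left there (permanent occlusion, pMCAO), or the matching region of the same side after sham surgery. The animals were male C57BL/6 mice of 8 to 10 weeks, occluded on the right, and male Sprague-Dawley rats of 8 to 12 weeks, occluded on the left. Tissue was taken at 2 h or 6 h, with 3 animals in each of the 8 groups and 1 animal per array, 24 arrays in all.

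Proteins of this family read DNA through tandem fingers that each hold a zinc ion. Many also carry a KRAB domain, which recruits the corepressor Trim28 and, through it, the histone methyltransferase Setdb1, heterochromatin proteins and histone deacetylases, so that the bound site is silenced. Others carry a SCAN domain, which pairs zinc finger proteins with one another, and a smaller number act in neural development, in general transcription or on RNA.

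Expression was deposited as log2 values, so that a difference of 1 is a doubling and the log2 fold change is the mean of pMCAO minus the mean of sham. Members had a median log2 level of 7.03 in mouse and 7.05 in rat, against 6.36 and 6.86 over all genes. The brightest in both species was Zfp365, a gene with strong expression in brain, at 10.73 in mouse and 10.61 in rat, and the dimmest was Zfp457, at 3.88 and 3.73. Zfp148, Zfp706 and Zfp638 followed in mouse (9.50, 9.48 and 9.32), and Zfp180, Zfp706 and Zfp148 in rat (9.50, 9.39 and 9.31). Such levels on an array depend on the probes, so the order between genes is only approximate. The array medians differed between the times, at 6.03 to 6.06 and 5.92 to 5.96 in mouse and at 6.67 to 6.75 and 5.82 to 5.87 in rat, so each pMCAO group was set only against the sham group of its own time. The mean of 12 neuronal markers lay between 10.43 and 10.85 on all mouse arrays and between 11.16 and 11.93 on all rat arrays, above the median gene throughout.

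At 2 h no member passed the test in either species, and the values leaned slightly below sham. The test was limma's moderated test on the log2 values, two-sided, with Benjamini-Hochberg adjustment over all genes of the species and a threshold of adjusted p 0.05. In mouse, limma called 0 of 218 members, against 0.298% of all genes, and 31 members had an unadjusted p under 0.05 (14.2%, against 7.71% of all genes), 23 of them below sham (10.6%, against 3.88%) and 8 above (3.67%, against 3.84%). Rat at 2 h gave 0 members, against 0.0661% of all genes, and 23 at an unadjusted p under 0.05 (10.6%, against 7.08%), 22 below sham (10.1%, against 3.77%) and 1 above (0.459%, against 3.32%). Other settings of the same test called at most 1 member in mouse and 2 in rat. The log2 fold change was below 0 for 141 members in mouse (64.7%, against 52.1% of all genes) and for 159 in rat (72.9%, against 51.2%). The median over the members was -0.05 in mouse and -0.06 in rat, against -0.01 and 0.00 over all genes.

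In 30 members of the mouse at 2 h every pMCAO array was below every sham array (13.8%, against 8.39% of all genes), and in 11 every pMCAO array was above (5.05%, against 6.24%). The rat at 2 h had 48 members with every pMCAO array below (22.0%, against 7.57%) and 3 with every one above (1.38%, against 5.54%). With 3 animals on each side the smallest p of an exact permutation test is 0.1, so these counts are descriptions.

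The members with the lowest values in mouse at 2 h were Zfp189, which encodes a KRAB zinc finger protein, at -0.44 ± 0.10 (SE, n = 3 per group, adjusted p = 0.132), Zscan12 at -0.39 and Zscan20 at -0.38. The highest were Zfp819 at 0.35, Zfp40 at 0.24 and Zfp711 at 0.21. In rat the lowest were Zfp189 at -0.94 ± 0.19 (limma adjusted p = 0.142), Zfp709 at -0.63 and Zfp455 at -0.52, and the highest were Zfp61 at 0.37, Zfp772 at 0.24 and Zfp608 at 0.22. None of these passed.

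At 6 h 16 members passed in mouse and 31 in rat. Mouse had 14 falls (6.42% of members, against 4.23% of all genes) and 2 rises (0.917%, against 3.21%), so its share past the threshold in either direction, 7.34%, lay near the 7.43% of all genes. Rat had 31 falls (14.2% of members, against 3.62% of all genes) and 0 rises (against 2.85% of all genes). By limma 7 members had higher values in rat at an unadjusted p under 0.05 (3.21%, against 8.96%), and the other settings gave 0 rises except the fit on genes above the median gene, which gave 2, and the fit without pMCAO replicate 2, which gave 1. The median log2 fold change of the members was -0.06 in mouse and -0.12 in rat, against -0.02 over all genes in each. In rat 165 members were below 0 (75.7%, against 54.1%), and in mouse 134 (61.5%, against 53.6%).

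**Figure D1:**
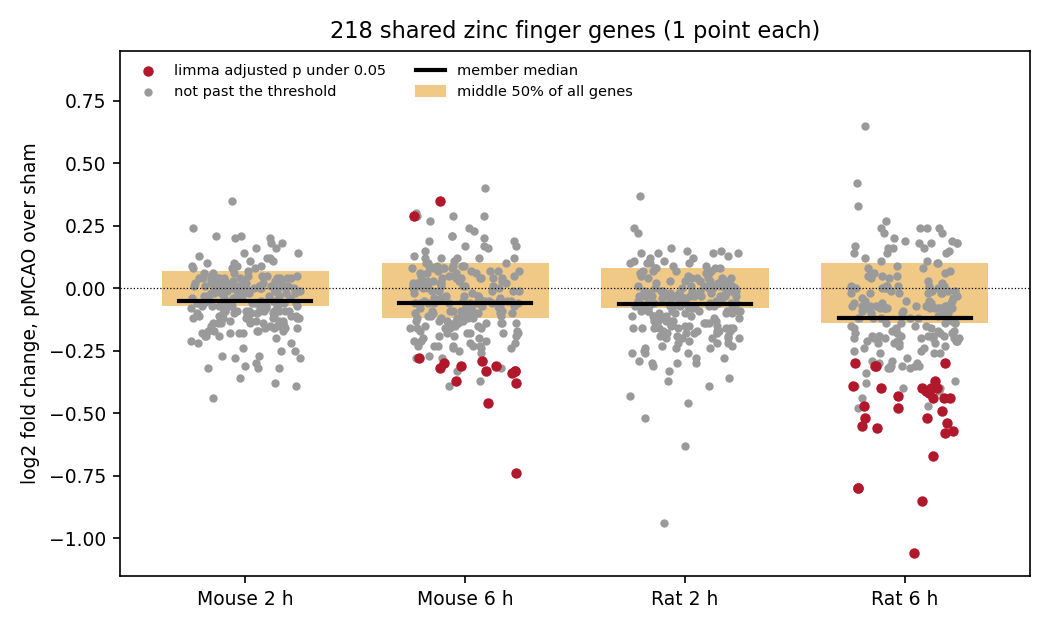
Log2 fold change of pMCAO over sham for the 218 zinc finger genes (1 point each) in the 4 comparisons, with the member median as a bar, the middle 50% of all genes as a box, and members past limma's adjusted p of 0.05 in red. Red points appear at 6 h, and in rat all 31 lie below 0.

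In rat at 6 h every pMCAO array lay below every sham array for 65 members (29.8%, against 14.8% of all genes) and above for 10 (4.59%, against 9.73%). The mouse counts at 6 h were 34 below (15.6%, against 14.6%) and 14 above (6.42%, against 10.7%).

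Both counts at 6 h moved with single arrays. In mouse, 8, 10 and 9 members passed without pMCAO replicates 1, 2 and 3, and 14, 7 and 3 without sham replicates 1, 2 and 3. In rat, 22, 26 and 24 passed without pMCAO replicates 1, 2 and 3, and 12, 13 and 17 without sham replicates 1, 2 and 3. The calls that held without any 1 of the 6 arrays of the comparison were Zfp40 and Zfp638 in mouse, and Zfp235, Zfp322a, Zfp366, Zfp46, Zfp462, Zfp74, Zfp763, Zfp846 and Zfp945 in rat.

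The 6 mouse arrays at 6 h also differed in markers of striatal neurons, the neurons of the deep forebrain that express dopamine receptors. The mean of 9 such markers was 8.14, 7.39 and 8.37 in the sham arrays and 7.30, 7.19 and 7.15 in the pMCAO arrays, and 3 of the 9 fell. With this mean as a covariate 0 members passed in mouse at 6 h and 26 had an unadjusted p under 0.05, while the calls over all genes went from 1649 to 45. The median of the members stayed 0.04 below that of all genes, the same distance as without it (-0.04). In rat at 6 h the mean of 10 such markers was 6.77 to 6.83 in sham and 6.89 to 6.91 in pMCAO, 0 of the 10 passed by limma, and 18 members fell with the covariate. Rat endothelial markers at 6 h ranged from 7.02 to 7.36 in sham and from 6.70 to 7.11 in pMCAO, with 2 of 7 falling, and their part in the falls was not tested. Neutrophil markers were at 4.66 to 4.83 in rat sham and 5.07 to 5.23 in rat pMCAO arrays, below the median gene in both. Mouse neutrophil markers were also higher, at 5.18 to 5.28 in sham and 5.35 to 5.61 in pMCAO arrays.

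General neuronal markers at 6 h were slightly lower after pMCAO in both species, without overlap. Their mean was 10.54 to 10.57 in mouse sham and 10.43 to 10.51 in mouse pMCAO arrays, with 1 of 12 falling, and 11.23 to 11.29 in rat sham and 11.16 to 11.21 in rat pMCAO arrays, with 0 of 12 past the threshold by limma. Mouse microglial markers were at 7.44 to 7.50 in sham and 7.27 to 7.43 in pMCAO arrays, with 3 of 10 falling. Their median log2 fold change was 0.00, with 5 of the 10 below 0, so the list did not fall as a whole. Of 9 rat microglial markers 2 rose and 2 fell. Mouse choroid plexus markers were highest in pMCAO replicate 3, at 7.36, against 5.86 to 6.49 on the other 5 arrays. In rat, choroid plexus markers were at 5.83 to 6.00 in sham and 6.06 to 6.21 in pMCAO arrays. The part of these markers in the members' falls was not tested. In whole tissue, fewer cells of a type and less RNA per cell cannot be told apart.

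Fell in both species at 6 h were 6 genes: Zfp40, Zfp322a, Zfp46, Zfp74, Zfp846 and Zkscan4. They made up 42.9% of the 14 mouse falls and 19.4% of the 31 rat falls. Over all shared symbols, 159 genes fell in both, 22.9% of the 693 mouse falls and 27.2% of the 584 rat falls. No member passed in opposite directions, and neither did any of the 14204 shared symbols.

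Zfp40 had the largest mouse fall. Its log2 levels at 6 h were 7.44, 7.56 and 7.81 in mouse sham arrays and 6.74, 6.84 and 7.01 in pMCAO arrays. Every pMCAO animal was well below the lowest sham animal, and the mean was 59.9% of sham (log2 fold change -0.74 ± 0.10 SE, n = 3 per group, limma adjusted p = 0.00295). In rat the sham arrays read 8.46, 8.36 and 8.56 and the pMCAO arrays 7.85, 8.23 and 7.74, again without overlap though with 1 pMCAO animal close to sham (-0.52 ± 0.13, limma adjusted p = 0.0413). The rat call was lost without any 1 array other than pMCAO replicate 2, with adjusted p up to 0.131.

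Zfp846 read 7.66, 7.47 and 7.59 in mouse sham and 7.31, 7.20 and 7.25 in mouse pMCAO arrays at 6 h (-0.32 ± 0.07, limma adjusted p = 0.017). Its rat values were 7.99, 8.07 and 8.25 in sham and 7.44, 7.48 and 7.39 in pMCAO arrays (-0.67 ± 0.10, limma adjusted p = 0.00219). Groups did not overlap in either species. The mouse call was lost without pMCAO replicate 2, sham replicate 1 or sham replicate 3, with adjusted p up to 0.0593.

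For Zfp74, mouse sham arrays at 6 h were at 7.53, 7.45 and 7.50 and pMCAO arrays at 7.20, 7.16 and 7.12 (-0.33 ± 0.07, limma adjusted p = 0.0146). Rat sham arrays were at 7.16, 7.32 and 7.27 and pMCAO arrays at 6.81, 6.66 and 6.84 (-0.48 ± 0.08, limma adjusted p = 0.00481). Its groups were apart in both species and each was narrow, and the mouse call was lost only without sham replicate 3, at an adjusted p of 0.0502.

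Zfp322a gave 7.58, 7.80 and 7.83 in mouse sham and 7.38, 7.41 and 7.27 in mouse pMCAO arrays (-0.38 ± 0.08, limma adjusted p = 0.0171). In rat it gave 7.22, 7.04 and 7.0 in sham and 6.69, 6.73 and 6.57 in pMCAO arrays (-0.42 ± 0.08, limma adjusted p = 0.00886). The fall was of similar size in both species and no group overlapped. The mouse call was lost without pMCAO replicate 3, sham replicate 2 or sham replicate 3 (adjusted p up to 0.0674).

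Zfp46 was at 7.80, 7.95 and 7.89 in mouse sham and at 7.55, 7.48 and 7.69 in mouse pMCAO arrays (-0.31 ± 0.07, limma adjusted p = 0.0292). Rat sham arrays read 7.29, 7.51 and 7.30 and rat pMCAO arrays 6.95, 6.92 and 6.92 (-0.44 ± 0.08, limma adjusted p = 0.00856). The 3 rat pMCAO animals lay close together, below all sham animals, and the mouse groups did not overlap either. In mouse the call was lost without pMCAO replicate 1 or 2 or sham replicate 2 or 3 (adjusted p up to 0.0948).

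Zkscan4, which encodes a protein with both a SCAN and a KRAB domain, was the dimmest of the 6. Its mouse values at 6 h were 5.77, 5.93 and 5.99 in sham and 5.67, 5.64 and 5.49 in pMCAO arrays (-0.30 ± 0.08, limma adjusted p = 0.0428). Rat values were 5.27, 5.60 and 5.43 in sham and 4.79, 4.66 and 5.17 in pMCAO arrays (-0.56 ± 0.13, limma adjusted p = 0.023). The groups did not overlap but came close to each other in both species. The mouse call was lost without any 1 array other than sham replicate 1 (adjusted p up to 0.143), and the rat call without pMCAO replicate 1 or 2 or sham replicate 2 or 3 (up to 0.0937).

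**Figure D2:**
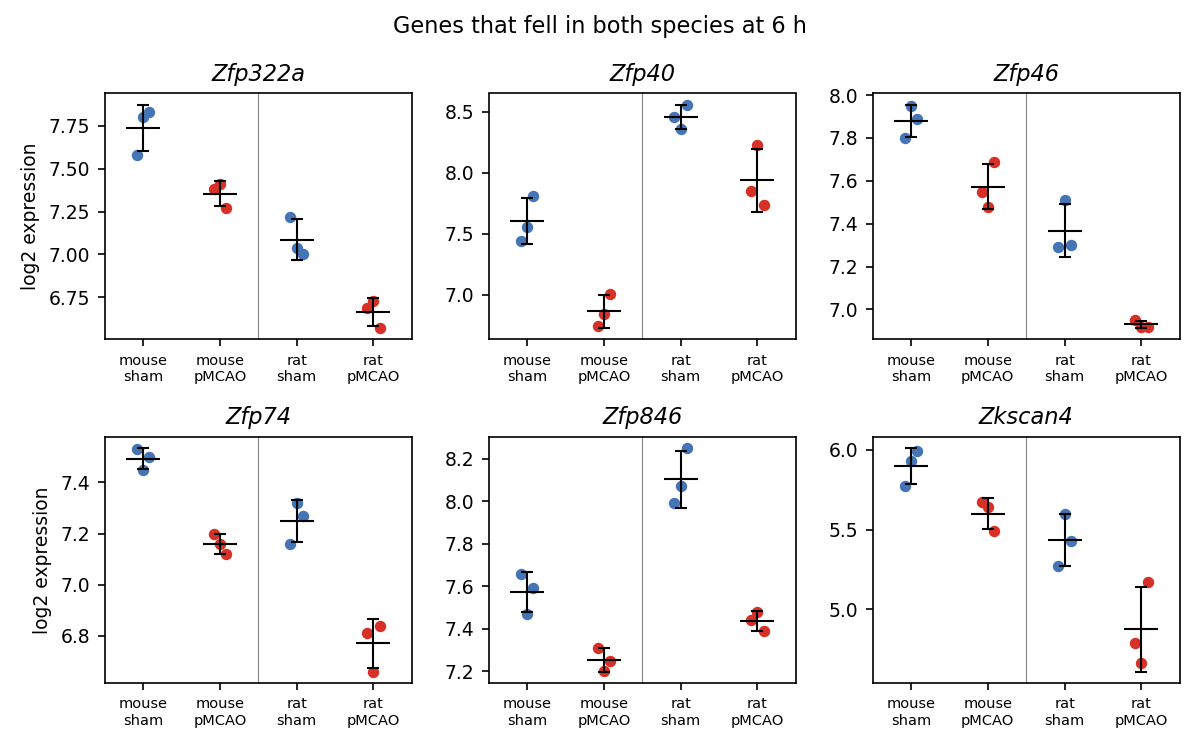
Log2 expression at 6 h on each array (points) for the 6 genes that fell in both species, sham in blue and pMCAO in red, with the mean and SD of 3 animals. Axes do not start at 0, and in each gene and species all pMCAO points lie below all sham points.

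Promoters are shown for 3 of the 6 shared falls and for Zfp189, whose values are given further on and which did not fall at 6 h, because all 4 hold the same string of 6 letters. They were picked for that string. Mouse promoters were taken from RefSeq on assembly GRCm38.p6, from 250 bases before to 50 after the first listed start, and 176 of the 218 members had an entry (37 with several starts). The lines below give Zfp74 (chr7:29954016-29954315, minus strand), Zfp846 (chr9:20581078-20581377, plus strand), Zkscan4 (chr13:21478599-21478898, plus strand) and Zfp189 (chr4:49520926-49521225, plus strand), each 5′ to 3′ along the gene. Capitals mark TGTAGT, the reverse complement of ACTACA, and in Zkscan4 also CCGGAAG.
Zfp74: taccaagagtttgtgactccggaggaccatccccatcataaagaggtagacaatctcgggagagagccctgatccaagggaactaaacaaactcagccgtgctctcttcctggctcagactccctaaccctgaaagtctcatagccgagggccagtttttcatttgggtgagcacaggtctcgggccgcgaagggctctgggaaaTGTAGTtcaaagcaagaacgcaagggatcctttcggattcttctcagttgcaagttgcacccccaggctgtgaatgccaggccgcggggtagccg
Zfp846: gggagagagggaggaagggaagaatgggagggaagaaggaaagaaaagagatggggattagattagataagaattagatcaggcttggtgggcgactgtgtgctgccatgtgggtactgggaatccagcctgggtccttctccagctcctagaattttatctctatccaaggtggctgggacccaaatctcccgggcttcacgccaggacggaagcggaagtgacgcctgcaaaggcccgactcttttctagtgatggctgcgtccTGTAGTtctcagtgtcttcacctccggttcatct
Zkscan4: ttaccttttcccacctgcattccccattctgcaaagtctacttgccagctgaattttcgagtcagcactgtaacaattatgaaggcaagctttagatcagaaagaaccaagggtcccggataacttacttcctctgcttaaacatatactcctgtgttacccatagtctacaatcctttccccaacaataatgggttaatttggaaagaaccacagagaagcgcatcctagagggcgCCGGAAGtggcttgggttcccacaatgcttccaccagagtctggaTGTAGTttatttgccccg
Zfp189: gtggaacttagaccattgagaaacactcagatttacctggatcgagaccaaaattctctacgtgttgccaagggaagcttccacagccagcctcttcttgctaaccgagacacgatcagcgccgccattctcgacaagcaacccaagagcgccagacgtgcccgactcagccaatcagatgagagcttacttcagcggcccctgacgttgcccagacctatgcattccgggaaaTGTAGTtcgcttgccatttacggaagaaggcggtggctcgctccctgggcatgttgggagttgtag

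ACTACA, counted on either strand, stood in 39 of the 176 member promoters (22.2%), against 10.7% of all 27025 promoters of the same length. It stood in 4 of 11 promoters of the mouse falls (36.4%) and in 8 of 26 of the rat falls (30.8%). CCGGAAG, the core bound by Ets family factors, stood in 42 member promoters (23.9%, against 9.12%), in 1 of 11 of the mouse falls (9.09%) and in 8 of 26 of the rat falls (30.8%). Of the other shared falls, Zfp322a and Zfp46 held neither string in this window, and Zfp40 was not among the matched entries. These strings were chosen out of 11 after their shares had been seen, longer strings were also looked at and left out, and a match is not evidence of binding. Members carried a median of 16 CpG pairs per promoter, against 7 over all promoters, with 15 in the mouse falls and 9 in the rat falls.

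The other named mouse falls at 6 h were smaller than that of Zfp40. Zfp638, an RNA- and DNA-binding protein that recruits silencing factors to unintegrated retroviral DNA, had 9.16, 9.23 and 9.27 in sham and 8.91, 8.91 and 8.90 in pMCAO arrays (-0.31 ± 0.06, limma adjusted p = 0.00953). Its pMCAO animals were nearly equal, all below sham. Zfp870 read 6.81, 6.90 and 6.88 in sham and 6.34, 6.47 and 6.41 in pMCAO arrays (-0.46 ± 0.10, limma adjusted p = 0.0239). The groups were apart, but the call was lost without pMCAO replicate 1 or 3 or sham replicate 2 or 3, with adjusted p up to 0.0756. Zkscan2 (-0.37), Zfp354a (-0.34), the SCAN gene Zfp174 (-0.33), Zfp11 (-0.33), Zfp512 (-0.29) and Zfp563 (-0.28) completed the 14 falls. The calls for Zfp354a and Zfp563 failed in all 6 single-array omissions, where limma's adjusted p was never below 0.0647 and 0.059. Zfp174 was lost in 5 of the 6 omissions, Zfp11 in 4, and Zkscan2 and Zfp512 in 3 each.

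The mouse rises were Zfp655 and Zfp574. Zfp655 read 7.28, 7.18 and 7.19 in sham and 7.50, 7.49 and 7.52 in pMCAO arrays (0.29 ± 0.06, limma adjusted p = 0.0141). Zfp574 read 6.08, 5.99 and 5.88 in sham and 6.36, 6.19 and 6.44 in pMCAO arrays (0.35 ± 0.08, limma adjusted p = 0.0315). Both sets of pMCAO arrays were above all sham arrays. The Zfp655 call was lost without sham replicate 3 (adjusted p = 0.0525) and the Zfp574 call without pMCAO replicate 1 or 3 or sham replicate 2 or 3 (up to 0.113). Their rat values at 6 h were 0.16 and 0.18 and did not pass.

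Zfp366, a corepressor of nuclear receptors known from dendritic cells, had the rat fall with the lowest adjusted p. Its rat arrays at 6 h read 6.65, 6.51 and 6.39 in sham and 5.74, 5.82 and 5.58 in pMCAO, so that the pMCAO mean was 57.3% of sham (-0.80 ± 0.11, limma adjusted p = 0.00194). The groups were far apart. Mouse sham arrays spread widely, at 6.50, 6.06 and 5.68, around mouse pMCAO arrays of 6.04, 5.99 and 5.96, and the mouse value was -0.08. The rat difference from mouse did not pass the test of the difference between species described further on.

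The largest rat fall, that of Zfp455, rested on dim and scattered values. Rat sham arrays at 6 h read 5.60, 5.45 and 5.48 and pMCAO arrays 3.76, 4.69 and 4.91 (-1.06 ± 0.24, limma adjusted p = 0.0243). Zfp457 read 3.79, 3.63 and 3.70 in sham and 2.39, 3.22 and 3.12 in pMCAO arrays (-0.80 ± 0.19, limma adjusted p = 0.0261). In both genes pMCAO replicate 1 was the lowest array and the groups did not overlap. These genes belong to a family of close copies, so probes may read more than 1 of them, and both calls were lost without any 1 of the 3 sham arrays, with adjusted p up to 0.0844 for Zfp455 and 0.0912 for Zfp457.

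Among other rat falls that held without any 1 array, Zfp945 read 6.16, 6.06 and 6.17 in sham and 5.48, 5.79 and 5.39 in pMCAO arrays (-0.58 ± 0.10, limma adjusted p = 0.00782). Zfp763 read 7.70, 7.71 and 7.60 in sham and 7.18, 7.06 and 7.11 in pMCAO arrays (-0.55 ± 0.09, limma adjusted p = 0.00427). In both, every pMCAO animal was below every sham animal. Zfp248 also fell in rat (-0.57 ± 0.12, limma adjusted p = 0.0191), a call lost without pMCAO replicate 2 or 3 or sham replicate 1 or 2 (up to 0.0815). The remaining rat falls ranged down to -0.30, the value of Zfp518a and Zfp292.

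**Figure D3:**
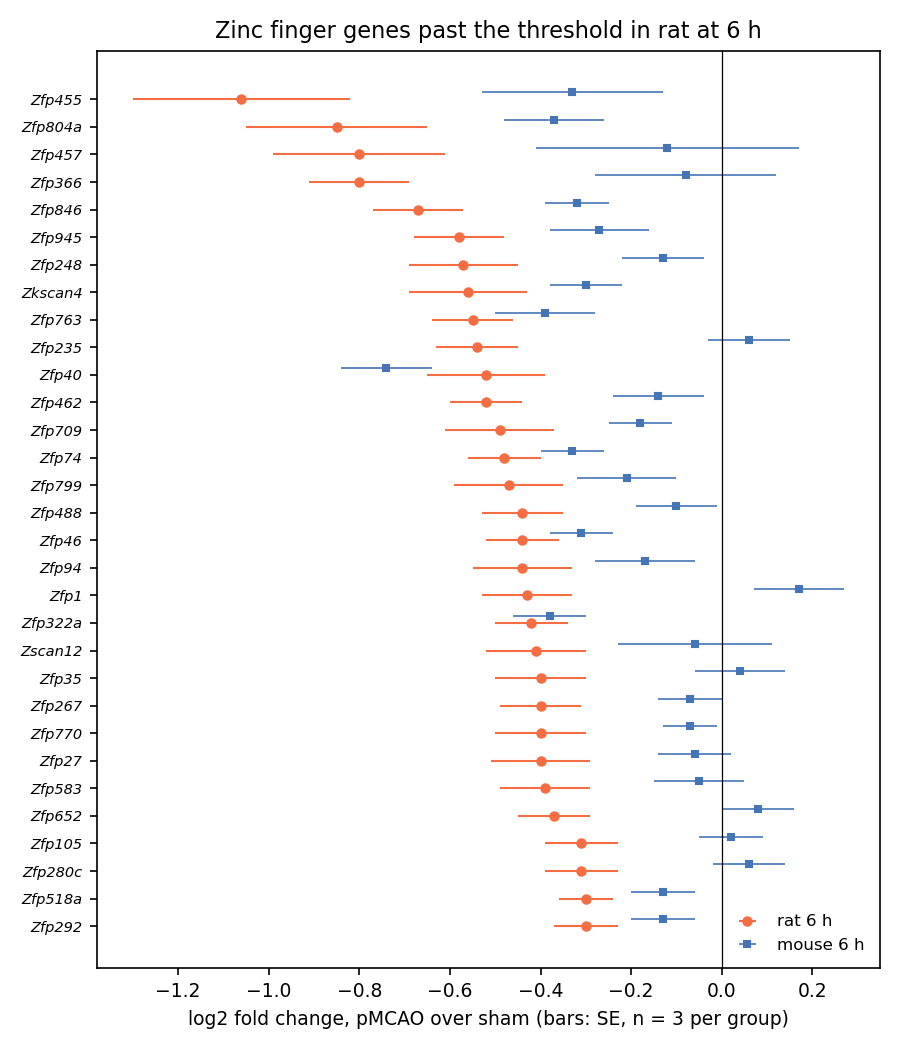
Log2 fold change of pMCAO over sham at 6 h (points, with SE, 3 animals per group) for the 31 members that fell in rat, in rat (orange circles) and in mouse (blue squares). The mouse values have a median of -0.13 and 25 of the 31 are below 0, where 134 of all 218 members are in mouse (61.5%).

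By role, the falls in rat at 6 h included 4 of the 9 members known from neural and glial development (44.4%, against 3.62% of all genes and 14.2% of members), and none of these 9 passed in mouse by limma. The median of the 9 in rat was -0.07, against -0.12 over all members. This group was drawn up with earlier results known, so its share is a description. None of the 4 passed the test of the difference between species given further on. The 4 were Zfp804a, a gene associated with schizophrenia, Zfp462, a chromatin regulator of neurodevelopment, Zfp488, a factor of oligodendrocyte differentiation, and Zfp292. Zfp804a read 7.58, 7.39 and 7.45 in rat sham and 6.81, 7.04 and 6.03 in rat pMCAO arrays (-0.85 ± 0.20, limma adjusted p = 0.0275). Its pMCAO animals scattered widely, all below sham, and the call was lost without any 1 sham array (up to 0.0956). Zfp462 read 8.00, 7.88 and 7.78 in sham and 7.39, 7.35 and 7.37 in pMCAO arrays (-0.52 ± 0.08, limma adjusted p = 0.00312). Zfp488 read 7.33, 7.23 and 7.33 in sham and 6.74, 6.86 and 6.97 in pMCAO arrays (-0.44 ± 0.09, limma adjusted p = 0.0129). Neither overlapped. The call for Zfp488 was lost without sham replicate 1 (adjusted p = 0.0507), and that for Zfp292 without pMCAO replicate 1 or 3 or sham replicate 2 or 3 (up to 0.115). Oligodendrocyte precursor markers had 0 of 7 calls by limma in rat at 6 h, with a median of -0.11. The other 5 were Zfp365 (0.05), Zfp423 (0.01), Zfp521 (-0.07), Zfp503 (-0.03) and Zfp536 (-0.02), none of which passed in rat.

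Of the 23 SCAN domain members, 3 fell in mouse (Zkscan2, Zkscan4 and Zfp174) and 2 in rat (Zkscan4 and Zscan12) at 6 h, with medians of -0.01 and -0.10. These are 13.0% in mouse, against 4.23% of all genes and 6.42% of members, and 8.70% in rat, against 3.62% and 14.2%. The role groups were drawn up with earlier results known, so these shares are descriptions. Of the 4 KRAB genes known for silencing imprinted genes and retroelements, none passed. Zfp57 and Zfp445, which protect imprints in the embryo, had rat values at 6 h of -0.34 (limma adjusted p = 0.0593) and -0.32 (limma adjusted p = 0.0561). Of the 12 members of general transcription and chromatin, Zfp148 among them, none passed in either species at 6 h, and their medians were 0.04 in mouse and 0.05 in rat. Among 5 RNA-binding members, Zfp638 alone passed, in mouse. Over all genes 7.43% passed in mouse at 6 h and 6.47% in rat. In groups this small, counts this low therefore say little about a role.

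The corepressors that KRAB proteins recruit were measured as a list of 30 genes in mouse and 27 in rat. None passed at 2 h by limma. At 6 h 1 rose and 4 fell in mouse (13.3% fell, against 4.23% of all genes), and 0 rose and 2 fell in rat (7.41% fell, against 3.62%). Trim28 itself had values of -0.05 and 0.11 in mouse and -0.07 and 0.10 in rat at 2 h and 6 h, with no call. Setdb1 had values of -0.05 and -0.15 in mouse and -0.15 and -0.27 in rat, also with no call (limma adjusted p = 0.0679 in rat at 6 h). Tasor, a subunit of the HUSH silencing complex, fell in both species at 6 h, by 0.31 ± 0.08 in mouse (limma adjusted p = 0.0344) and by 0.43 ± 0.08 in rat (limma adjusted p = 0.0123). Smarcad1, a chromatin remodeller that binds Trim28, fell in rat (-0.65 ± 0.09, limma adjusted p = 0.00219). In mouse Atf7ip, a partner of Setdb1, Cbx5, a heterochromatin protein, and Dnmt1, the maintenance DNA methyltransferase, also fell (-0.33, -0.26 and -0.24), and Rbbp7, a histone-binding protein, rose (0.33).

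The pMCAO values of Zfp189 lay on opposite sides of sham at the 2 times in both species. In rat the 2 h arrays read 8.96, 8.82 and 9.30 in sham and 8.12, 8.44 and 7.70 in pMCAO, and the 6 h arrays 7.97, 7.72 and 7.59 in sham and 8.43, 8.14 and 8.65 in pMCAO. In mouse they read 8.34, 8.38 and 8.50 against 8.14, 7.98 and 7.77 at 2 h, and 7.32, 7.23 and 7.29 against 7.47, 7.52 and 7.72 at 6 h. All pMCAO arrays were below sham at 2 h and above sham at 6 h, in both species. The sham levels themselves were lower at 6 h, at 7.23 to 7.32 against 8.34 to 8.50 in mouse. In rat they were 7.59 to 7.97 against 8.82 to 9.30. The array medians also differed between the times, and what sham and pMCAO each contributed to the reversal was not tested. The single comparisons did not pass (0.65 ± 0.19 in rat at 6 h, limma adjusted p = 0.0661, and 0.29 ± 0.10 in mouse, limma adjusted p = 0.0915), except in rat at 6 h without pMCAO replicate 2 (0.78, adjusted p = 0.0442). The next highest rat values at 6 h were Zfp663 at 0.42 and Zfp697 at 0.33.

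The change of the pMCAO effect from 2 h to 6 h was tested within each species, and each gave 1 member past the threshold. For Zfp189 in rat the change was 1.59 ± 0.27 (limma adjusted p = 0.0379), the 1 member past the threshold there, against 0.231% of all genes. It was 0.73 ± 0.14 in mouse, where it did not pass (limma adjusted p = 0.0649). The rat call held only without pMCAO replicate 2 of either time, and the other 10 of 12 omissions gave adjusted p up to 0.125.

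Zfp40 was the mouse member whose effect changed, by -0.98 ± 0.14 (limma adjusted p = 0.0379). It was the 1 member past the threshold, against 0.171% of all genes in either direction and 0.0857% in each. Mouse arrays at 2 h read 7.38, 7.39 and 7.46 in sham and 7.71, 7.73 and 7.51 in pMCAO, so pMCAO was above sham at 2 h and below it at 6 h. Rat arrays at 2 h overlapped, at 9.22, 9.27 and 9.60 in sham and 9.32, 9.08 and 9.30 in pMCAO, and the rat change was -0.39 ± 0.19 (limma adjusted p = 0.498). The mouse call held only without 2 h pMCAO replicate 3, 6 h pMCAO replicate 1 or 6 h sham replicate 1, and the other 9 of 12 omissions gave adjusted p up to 0.119.

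**Figure D4:**
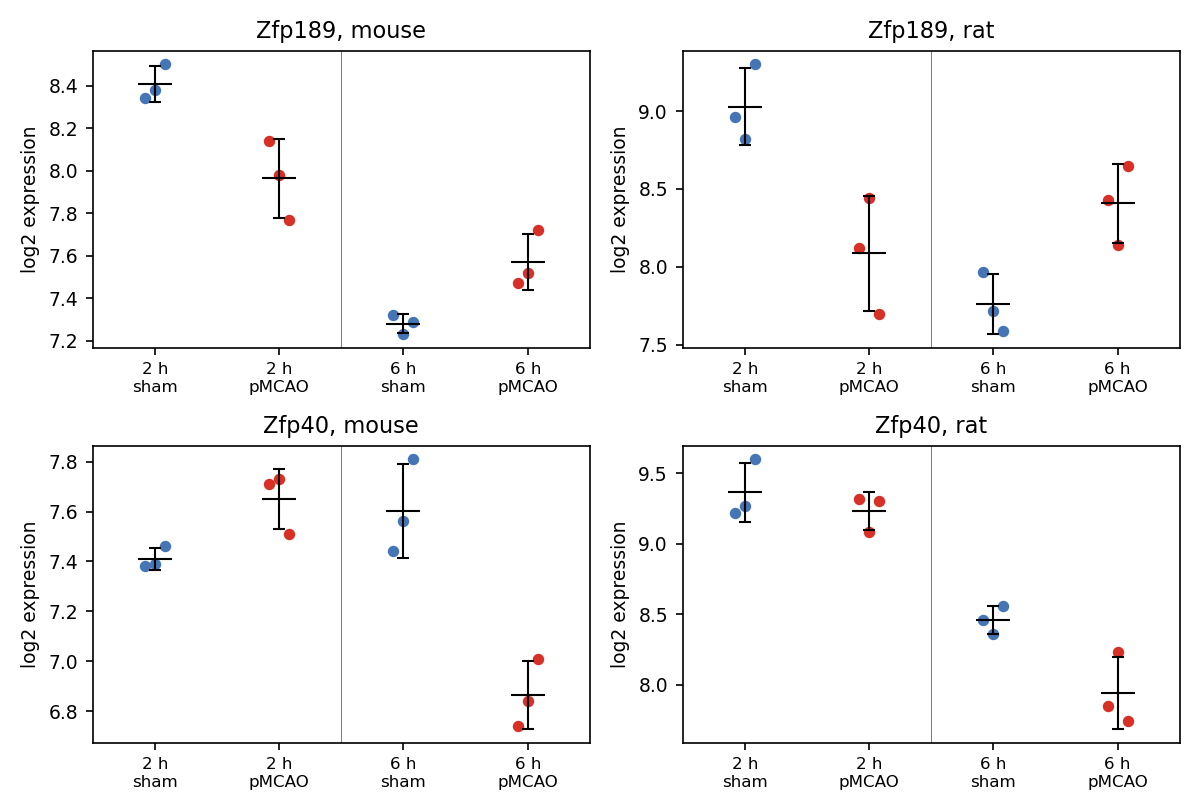
Log2 expression of Zfp189 and Zfp40 on each array (points) by time and surgery in mouse and rat, with the mean and SD of 3 animals. Axes do not start at 0. In both species Zfp189 pMCAO points lie below sham at 2 h and above it at 6 h, and mouse Zfp40 points move the opposite way.

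At 2 h, the 31 genes that fell in rat at 6 h had a median of -0.13, with 27 below 0, where 159 of all 218 members were below 0 (72.9%). The 14 genes that fell in mouse at 6 h had a median of -0.07 at 2 h, with 10 below 0, where 141 of 218 were (64.7%). Each time has its own sham animals. Because these genes were chosen for their 6 h values, the sizes at the 2 times are not compared.

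Across species the members' values at 6 h were loosely alike. The 14 mouse falls had a median of -0.36 in rat with 12 below 0, where all 218 members had a median of -0.12 with 165 below 0 (75.7%). Over the 218 members the Pearson correlation of the mouse and rat log2 fold changes was 0.36 at 6 h and 0.25 at 2 h, against 0.50 at both times over the 14204 shared symbols. These are descriptions across genes, which are not independent, and the species share no arrays.

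The difference between the species was tested as the rat minus the mouse log2 fold change over its standard error, adjusted over the 14204 shared symbols. At 2 h 0 members differed, against 0.0141% of shared symbols, and the other settings also gave 0 at the adjusted threshold. From the limma fits 17 members had an unadjusted p under 0.05 (7.80%, against 3.96%). At 6 h 6 members differed (2.75%, against 2.27%), 4 lower in rat (1.83%, against 1.08%) and 2 higher (0.917%, against 1.19%). Lower in rat were Zfp972 (-0.71 ± 0.15, limma-based adjusted p = 0.0164), Zfp235 (-0.60 ± 0.13, 0.0164), Zfp1 (-0.60 ± 0.14, 0.0252) and Zfp652 (-0.46 ± 0.11, 0.0332). Higher in rat were Zfp354a (0.52 ± 0.13, 0.0269) and Zfp385b (0.40 ± 0.10, 0.033).

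For Zfp235 the rat arrays at 6 h were at 5.25, 5.20 and 5.19 in sham and 4.64, 4.64 and 4.75 in pMCAO, a clear gap, while the mouse arrays overlapped, at 7.13, 7.17 and 6.96 in sham and 7.04, 7.13 and 7.28 in pMCAO. Zfp972 went opposite ways without passing in either species alone, with mouse arrays at 6.23, 6.50 and 6.22 in sham and 6.82, 6.77 and 6.55 in pMCAO and rat arrays at 8.62, 8.65 and 8.60 in sham and 8.40, 8.44 and 8.10 in pMCAO. The groups of Zfp972 were apart in both species. These were the species differences that held without any 1 of the 12 arrays at 6 h. With the striatal marker mean as a covariate neither passed (-0.54, limma-based adjusted p = 0.228 for Zfp235, and -0.45, 0.36 for Zfp972), and with the 6 arrays of each species at 6 h fitted alone Zfp972 did not (-0.71, 0.0521).

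The other 4 were less stable. Zfp1 was lost without mouse pMCAO replicate 2 or 3, mouse sham replicate 1 or rat sham replicate 1 or 2 (up to 0.0761). Zfp354a was lost without mouse pMCAO replicate 3, mouse sham replicate 1 or 3, rat pMCAO replicate 1 or rat sham replicate 1 or 3 (up to 0.0738). Zfp652 and Zfp385b were each lost without 8 of the 12 arrays (up to 0.0975 and 0.0928).

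**Figure D5:**
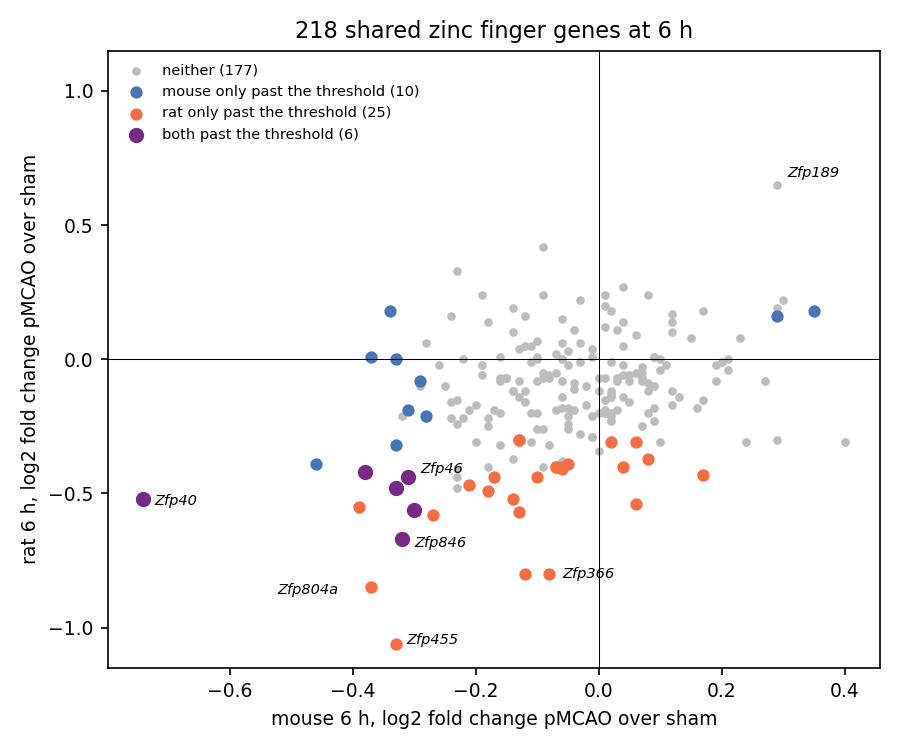
Log2 fold change of pMCAO over sham at 6 h in mouse (horizontal) and rat (vertical) for the 218 members, coloured by the species in which they passed limma's adjusted p of 0.05. The 6 members past the threshold in both species lie in the lower left, and no member past it in both lies in any other quadrant. None of the 14204 shared symbols passed in opposite directions at 6 h.

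Zinc finger genes named in 1 species only were set beside the members. Of 177 such mouse names 22 fell (12.4%) and 3 rose at 6 h, with a median of -0.16. Of 37 such rat names 3 fell (8.11%) and none rose by limma, with a median of -0.15. Zbtb genes, which carry a BTB domain beside their fingers, had 2 falls and 2 rises of 37 in mouse and 3 falls and 2 rises of 39 in rat at 6 h. Over all genes 4.23% fell in mouse and 3.62% in rat. Whether these shares differ from those of the members was not tested.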

How the data were processed

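Per the labels, RNA (RNeasy, integrity number above 7.5) was labelled with the WT PLUS kit and measured on whole-transcript arrays. The authors deposited log2 expression values to 2 decimals, 12 arrays per species; oligo and limma are named in the submitters' processing notes, without versions. For background correction, normalization and genome build the sources used here give nothing. The number of arrays limits the precision. Groups came from the sample titles, which the source names match, while the time point characteristic is 2 h throughout and was not used. Nothing was called absent, since no detection calls were used. The mouse table holds 41345 clusters, 23521 with a single symbol, 1814 with several and 16010 with none; the rat table holds 36685 (18511, 575 and 17599). Single-symbol clusters were used, the brightest per symbol (18 members had several in mouse, 4 in rat). The most alike pair of arrays shared 2.54% of its values exactly.

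Per species, 4 group means were fitted with limma 3.58.1 (R 4.3.3) on 8 residual degrees of freedom, with eBayes defaults and Benjamini-Hochberg adjustment over all genes of the species. The species difference used Welch-Satterthwaite degrees of freedom from these fits. The scripts were tested on simulated data. The members, lists and naming rule were chosen with earlier results of these data known: members past the threshold (up to 12 per direction by size), or the 3 largest where none passed, those shared by both species, those that changed over time or between species, the brightest and dimmest, and Trim28 and Setdb1 with up to 4 other corepressors. Others were named for their role, and the role groups were written from general knowledge. Alternatives were other normalizations, filters, cluster rules, eBayes settings, a log2 fold limit of 0.5, a replicate block, a striatal marker covariate, and leaving out each array. Domain classes from protein sequences were planned and not made.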

Additional observations from a re-analysis of the deposited data

Results flagged for a closer look

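The effect of pMCAO on 2 members differed between the times by the test of the difference itself. Zfp189 in rat changed by 1.59 log2 units from 2 h to 6 h, and Zfp40 in mouse by -0.98. The effect at 6 h differed between the species, as rat minus mouse, for Zfp972 (-0.71), Zfp235 (-0.60), Zfp1 (-0.60), Zfp652 (-0.46), Zfp354a (0.52) and Zfp385b (0.40). The standard errors, adjusted p-values and single-array omissions of these 8 differences are given with the comparisons above, and what lies behind them was not tested.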

How the results depend on the processing

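The median of the members minus that of all genes stayed below 0 in every comparison of pMCAO with sham and every setting. For the change over time in mouse this difference reached 0.01 without 2 h sham replicate 1. No value past the threshold in the main fits turned its sign, while named values near 0 could do so. Members past the threshold in mouse at 6 h (16) numbered 2 with the 6 arrays fitted alone, 7 over all clusters, 10 with array weights, 1 with the fold limit, 30 among genes above the median gene, 27 with trend and robust eBayes, 0 with the striatal covariate (limma, 26 at an unadjusted p under 0.05) and 3 to 14 without 1 array. In rat at 6 h (31) they numbered 6 with the 6 arrays alone, 14 over all clusters, 26 with array weights, 12 with the fold limit, 18 with the covariate and 12 to 26 without 1 array. The rat number was higher among genes above the median gene (34), with quantile normalization (34) and with trend and robust eBayes (38). The 0 at 2 h became 1 in mouse among genes above the median gene and with trend and robust eBayes, and in rat 2 with array weights and 1 with trend and robust eBayes. The change over time (1 in each species) became in mouse 0 over all clusters and with the covariate, 6 among genes above the median gene and 3 with trend and robust eBayes, and 0 to 1 without 1 array. In rat it became 0 over all clusters, with quantile normalization and with the covariate, 2 with array weights, among genes above the median gene and with trend and robust eBayes, and 0 to 2 without 1 array. The species difference at 6 h (6) became 1 with the 6 arrays alone, 3 over all clusters and with array weights, 0 with the covariate and 3 to 5 without 1 array. It was 7 among genes above the median gene and with trend and robust eBayes, and 4 with the fold limit. The replicate numbers were not treated as pairs in the main fits. Deviations of same-numbered pMCAO and sham arrays correlated between -0.12 and 0.33, which cannot settle whether animals were paired. The replicate block gave 5 members in mouse and 24 in rat at 6 h, and 0 for the change over time in each species. Smaller sets of genes or arrays change the adjustment or the residual degrees of freedom; the cause of the other shifts was not tested. With 3 animals per group, dim members such as Zfp457 are limited by low signal.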

Other observations

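Many zinc finger genes lie in clusters along the chromosome. In the gene order of RefSeq for mouse, 99 of the 218 members stood next to another gene named Zfp, Zkscan or Zscan and a number, and 119 did not. Zinc finger genes of other names were not counted as neighbours. At 6 h in rat, 16 of the 99 fell (16.2%) and 15 of the 119 (12.6%), against 3.62% of all rat genes. At 6 h in mouse, 6 of the 99 (6.06%) and 8 of the 119 (6.72%) fell, against 4.23% of all mouse genes. Of the members brighter than the median gene, 20 of 126 fell in rat at 6 h (15.9%, against 5.55% of all such genes), and of the dimmer ones 11 of 92 (12.0%, against 1.70%). In mouse these shares were 12 of 160 (7.50%, against 7.17%) and 2 of 58 (3.45%, against 1.29%). Differences between these subsets were not tested.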
